A study of Homo sapiens with 18 samples.

Results

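F2RL2, LINC00460, SYTL2, GIT1 and SCML1 are genes of MDA-MB-231 breast cancer cells that were chosen by their measured change after depletion of HP1γ in Dex-treated cells, where they were among the genes with the largest increases and decreases. They are 5 of 60642 gene symbols counted, and all 5 were among the 15298 genes with enough reads to be tested. MDA-MB-231, a TNBC line of mesenchymal character, is a long established human cell line. Its cells were transfected with SMART-pool siRNAs against CBX3, the gene of HP1γ (siHP1γ), or against PRMT5 (siPRMT5), or with a nonspecific siRNA (siNS). They then received dexamethasone (Dex), a synthetic glucocorticoid, at 100 nM or the ethanol vehicle (Eth) for 8 h. RNA was sequenced from 6 conditions with 3 replicates each, and each library holds 8682992 to 12472381 reads assigned to genes. The study describes the replicates as biological, and the p-values below measure the spread between these 18 samples.

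HP1γ is a chromatin protein that binds methylated histone H3 and also sits along the bodies of active genes, so it is known both for silencing and for roles in transcription and RNA processing. PRMT5 is an arginine methyltransferase that modifies histones and splicing factors. Both act as coregulators of the glucocorticoid receptor, the transcription factor that Dex activates.

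The siRNA targets were low in the libraries labelled for them. CBX3 mRNA was at 274, 234 and 258 CPM (a gene's reads relative to all reads of its library, scaled by TMM) in siNS Eth replicates 1, 2 and 3, at 9.23, 9.91 and 10.5 CPM in siHP1γ Eth, and at 225, 218 and 229 CPM in siPRMT5 Eth. With Dex it was at 220, 241 and 229 CPM in siNS, 15.8, 14.0 and 11.4 CPM in siHP1γ, and 258, 288 and 227 CPM in siPRMT5 cells. Every siHP1γ library lay far below all others, and CBX3 in siHP1γ Eth was at 3.89% of its level in siNS Eth. PRMT5 mRNA was at 226, 262 and 259 CPM in siNS Eth, 211, 206 and 209 CPM in siHP1γ Eth, and 8.37, 7.75 and 6.10 CPM in siPRMT5 Eth. With Dex it was at 244, 247 and 226 CPM in siNS, 177, 199 and 189 CPM in siHP1γ, and 11.5, 10.6 and 9.39 CPM in siPRMT5 cells. PRMT5 was low in all siPRMT5 libraries, and it also lay below siNS Eth in every siHP1γ Eth library, by a log2 fold change of -0.25 ± 0.0748 (SE, edgeR adjusted p = 0.0111). The part of that smaller PRMT5 change in the results below was not tested. No other siRNA set against either target is among the samples. Loss of a target and other effects of its siRNA pool thus cannot be told apart in the changes given below. Reads of CBX3P9, a processed pseudogene of CBX3, fell with the siRNA as well, from 40.4, 37.6 and 43.9 CPM in siNS Eth to 1.06, 1.03 and 0.721 CPM in siHP1γ Eth. Of the replicates, siHP1γ Dex 1 differed most from its group, where the chi-square of the counts, divided by its degrees of freedom, was 6.80 and 11.3 against replicates 2 and 3, and 3.03 between those.

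Markers of the line were present in control cells. VIM, CD44, AXL and EGFR were at 8355, 809, 963 and 247 CPM on average in siNS Eth, and NR3C1, the gene of the glucocorticoid receptor, at 148 CPM. In siPRMT5 Eth, AXL and EGFR fell to 22.9% and 60.1% of siNS Eth (edgeR adjusted p = 1.4e-18 and 3.12e-07), and CD44 was at 88.5% (0.0216). VIM, NR3C1 and CAV1, a further marker, lay at 111%, 113% and 108% (edgeR adjusted p = 0.0683, 0.121 and 0.168) and did not pass. In siHP1γ Eth, CAV1 was at 67.5% of siNS Eth (edgeR adjusted p = 4.27e-07), AXL at 76.6% (2.46e-05), VIM at 81.5% (0.000797) and CD44 at 86.8% (0.0112). EGFR and NR3C1 did not pass there. ESR1, PGR and CDH1 had at most 0.218 CPM in any of the 18 libraries, and EPCAM was low but present at 11.0 CPM in siNS Eth. Of 4 markers of other cell types, ALB and PTPRC had 1 and 8 reads over all libraries, and COL1A1, the most abundant, had 1424. Their summed level was 4.75, 4.89 and 4.25 CPM in siNS Eth, 10.4, 10.4 and 9.46 CPM in siHP1γ Eth, and 16.1, 17.6 and 17.9 CPM in siPRMT5 Eth. With Dex the sum ranged from 8.28 to 9.79 CPM in siNS, from 8.27 to 11.7 CPM in siHP1γ and from 16.5 to 21.3 CPM in siPRMT5 cells. COL1A1 and PECAM1 rose with both siRNAs in Eth, while with Dex the sums of siHP1γ and siNS cells overlapped, and their part in the results was not tested. In RNA from whole cultures, fewer cells that express a gene and less RNA per cell cannot be told apart.

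The genes lie on different chromosomes (hg38, GENCODE 44). F2RL2 has 2 exons on the minus strand at chr5:76615482-76623413, inside IQGAP2, which is on the opposite strand. SYTL2 has 20 exons in its reference transcript, on the minus strand at chr11:85694224-85811159. GIT1, also with 20 exons, is on the minus strand at chr17:29573475-29594054, and SCML1, with 8, on the plus strand at chrX:17737449-17754988. LINC00460 is annotated as a long noncoding RNA on the plus strand at chr13:106374477-106384315. The strand setting of the read counting is not given in the sources used here, so reads of overlapping genes on opposite strands may be mixed. IQGAP2 had 173 reads in all 18 libraries together, fewer than F2RL2 had in siHP1γ Eth replicate 3 alone (206). ANKRD13B, which overlaps GIT1 head to head, had 2072 reads in all libraries, against 2557 for GIT1 in the 3 siNS Eth libraries.

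Promoters are shown for comparison, with genes that rose and genes that fell in the difference that chose them. Of the 5 genes, 4 matched the RefSeq promoter table (GRCh38.p14, 250 bases before to 50 bases after the start, strand of the gene). Capitals mark the AP-1 motif TGANTCA. The windows are chr5:76623354-76623653 (minus) for F2RL2, chr13:106376314-106376613 (plus) for LINC00460, chr17:29589599-29589898 (minus) for GIT1 and chrX:17737243-17737542 (plus) for SCML1.
F2RL2: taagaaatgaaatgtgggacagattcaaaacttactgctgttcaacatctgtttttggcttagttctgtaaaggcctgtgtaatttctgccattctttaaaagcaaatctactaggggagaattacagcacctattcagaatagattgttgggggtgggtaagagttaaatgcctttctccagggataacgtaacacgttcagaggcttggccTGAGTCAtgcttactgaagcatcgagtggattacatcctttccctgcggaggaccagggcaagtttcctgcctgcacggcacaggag
LINC00460: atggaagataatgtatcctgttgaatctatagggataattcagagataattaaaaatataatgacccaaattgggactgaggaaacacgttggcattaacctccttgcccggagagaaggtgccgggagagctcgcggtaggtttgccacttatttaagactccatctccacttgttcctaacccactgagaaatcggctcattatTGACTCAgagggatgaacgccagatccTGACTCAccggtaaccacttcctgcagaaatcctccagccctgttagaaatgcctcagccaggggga
GIT1: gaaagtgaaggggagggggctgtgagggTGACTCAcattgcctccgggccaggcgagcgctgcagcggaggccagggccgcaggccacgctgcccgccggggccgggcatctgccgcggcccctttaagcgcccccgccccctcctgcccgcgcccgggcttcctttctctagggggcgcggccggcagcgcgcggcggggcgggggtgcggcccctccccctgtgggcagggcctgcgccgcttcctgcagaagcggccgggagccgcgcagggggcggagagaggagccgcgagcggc
SCML1: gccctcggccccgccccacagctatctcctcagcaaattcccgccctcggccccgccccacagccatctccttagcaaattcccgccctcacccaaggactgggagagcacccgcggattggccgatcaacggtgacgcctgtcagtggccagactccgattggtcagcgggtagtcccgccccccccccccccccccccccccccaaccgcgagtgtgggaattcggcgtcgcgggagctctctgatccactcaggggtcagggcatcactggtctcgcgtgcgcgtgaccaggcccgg
The RefSeq starts of all 4 lie inside their GENCODE genes, further in for GIT1 and LINC00460 than for F2RL2 and SCML1. The start of ANKRD13B, at 29589769, falls within the GIT1 window. The motif set was chosen after the sequences were seen and was searched on both strands. TGANTCA occurred once in F2RL2, 37 bases before the start, in a pair in LINC00460, 44 and 17 bases before the start, once in GIT1, 222 bases before it, and at no place in the SCML1 window. It is found in 7.71% of 35116 promoters of this length. The half-site AGAACA of the glucocorticoid receptor, present in 14.8% of promoters, was in none of the 4 windows, and neither was TATAAA (11.5%). GGGCGG, the GC box (45.0% of promoters), occurred 3 times in GIT1 and 5 times in SCML1 and not in F2RL2 or LINC00460. CCAAT (34.6%) was found at 2 places in SCML1 and 1 in LINC00460. F2RL2 and LINC00460, which rose, had 5 and 8 CG dinucleotides, while GIT1 and SCML1, which fell, had 35 and 25, against a median of 14 over all promoters (quartiles 4 and 28). These matches are descriptions of the letters and were tested against nothing.

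F2RL2 encodes PAR3, a receptor of the protease-activated family that thrombin cleaves. Without Dex, F2RL2 mRNA was at 6.40, 5.61 and 5.90 CPM in siNS, 16.3, 15.7 and 18.6 CPM in siHP1γ, and 4.94, 4.23 and 4.30 CPM in siPRMT5 replicates 1, 2 and 3. With Dex it was at 2.74, 3.81 and 3.72 CPM in siNS, 15.0, 12.4 and 11.6 CPM in siHP1γ, and 3.71, 3.54 and 5.32 CPM in siPRMT5 cells. All siHP1γ libraries lay above all libraries of the other siRNAs, with or without Dex, and siPRMT5 Eth lay just below siNS Eth without overlap. The separation of siHP1γ from siNS with Dex is part of the choice. In Eth, HP1γ depletion raised F2RL2 by a log2 fold change of 1.5 ± 0.148 (SE, 95% CI 1.2 to 1.8, edgeR adjusted p = 2.59e-08), or 2.83-fold. PRMT5 depletion gave -0.41 ± 0.184 (edgeR adjusted p = 0.077), which did not pass the threshold of 0.05, and siHP1γ Eth was above siPRMT5 Eth by 1.91 ± 0.156 (edgeR adjusted p = 2.17e-10). In the Dex comparison that chose the gene the difference between siHP1γ and siNS was 1.94 ± 0.164. The Dex response itself was -0.81 ± 0.189 in siNS and -0.37 ± 0.128 in siHP1γ cells, given without a test since these libraries share samples with the choice. In siPRMT5 cells, whose libraries did not enter the Dex difference that chose the gene, the response was -0.12 ± 0.194 (edgeR adjusted p = 0.752).

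Of 15 other tested genes of the PAR receptor and thrombin list, 2 rose and 4 fell in siHP1γ Eth against siNS Eth (40.0%), beside 31.8% of all genes tested, with a median log2 fold change of 0.09 for the list and 0.01 for all genes. The count of 6 fell to 3 without siNS Eth replicate 1. F3, the tissue factor that starts coagulation, fell by 0.90 (edgeR adjusted p = 3.25e-08), GNAQ fell by 0.45 (0.00441), TFPI, an inhibitor of tissue factor, fell by 0.45 (0.000667), and ARHGEF11 rose by 0.35 (0.00938). F2R, the gene of PAR1, lay at 0.32 ± 0.123 (edgeR adjusted p = 0.0516), and passed at 0.37 (0.0231) when libraries were scaled by their size alone. F2RL1, the gene of PAR2, lay at 0.08 ± 0.0693 (edgeR adjusted p = 0.425) in siHP1γ Eth and rose by 0.64 (3.54e-08) in siPRMT5 Eth. F2R and F2RL1 are also the nearest neighbours of F2RL2 on one side, 92.7 and 195.5 kb from its start. After PRMT5 depletion, 4 genes of the list rose and 5 fell (60.0%, beside 42.1% of all genes). With Dex, 2 of the list rose and 1 fell in siHP1γ against siNS (20%, beside 24.0% of all genes). These include F3, which fell, and F2R at 0.35 (edgeR adjusted p = 0.043), while GNAQ, TFPI and ARHGEF11 did not pass. F2RL3 had too few reads to be tested.

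SYTL2 encodes a synaptotagmin-like protein that binds RAB27 and helps dock secretory vesicles at the plasma membrane. SYTL2 mRNA without Dex was at 21.5, 18.2 and 22.7 CPM in siNS, 57.4, 57.7 and 61.3 CPM in siHP1γ, and 32.0, 31.1 and 29.9 CPM in siPRMT5 cells. With Dex the levels were 9.19, 11.2 and 11.6 CPM in siNS, 39.8, 33.1 and 32.7 CPM in siHP1γ, and 13.9, 15.7 and 17.0 CPM in siPRMT5 cells. The order siHP1γ over siPRMT5 over siNS held in both treatments with no overlap, and within each siRNA the Dex libraries lay below the Eth libraries. With Dex, however, the gap between siHP1γ and siNS is part of the choice. In Eth, SYTL2 rose after HP1γ depletion by a log2 fold change of 1.5 ± 0.101 (SE, edgeR adjusted p = 4.38e-11), and after PRMT5 depletion by 0.57 ± 0.107 (9.97e-05). The difference between the depletions was 0.92 ± 0.0973 (edgeR adjusted p = 1.87e-08). Dex lowered SYTL2 in siPRMT5 cells, with a log2 fold change of -1.0 ± 0.11 (edgeR adjusted p = 1.18e-07). As a description, the response was -0.97 ± 0.12 in siNS and -0.74 ± 0.0945 in siHP1γ cells, and the difference of siHP1γ from siNS with Dex, part of the choice, was 1.73 ± 0.113.

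Among 13 other tested genes of the synaptotagmin-like and RAB27 list, 3 rose and 1 fell in siHP1γ Eth (30.8%), close to the share of all genes, with a median of 0.23, and 2 passed when at least 10 reads in every library were asked for. RAB3B rose by 1.40 ± 0.503 (edgeR adjusted p = 0.0348) from a mean of only 0.556 CPM, SYTL3 rose by 0.63 (0.000292), UNC13D rose by 0.33 (0.0037), and SYTL1 fell by 0.85 (0.0255). SYTL4 lay at 0.10 ± 0.104 (edgeR adjusted p = 0.485), and SYTL5 was not tested. In siPRMT5 Eth, 4 of the list rose and 1 fell (38.5%, beside 42.1% of all genes), while SYTL1, SYTL3 and SYTL4 did not pass, at -0.29 ± 0.271, 0.24 ± 0.129 and -0.05 ± 0.107. In siHP1γ against siNS with Dex, 1 of the list rose and 3 fell (30.8%, beside 24.0%), where 3 rose and 1 fell in Eth. SYTL1 fell in both treatments, and RAB3B, SYTL3 and UNC13D did not pass with Dex. The other genes called with Dex had not passed in Eth, so no called gene changed direction.

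GIT1 encodes a scaffold of focal adhesions that binds PIX and paxillin and turns off ARF GTPases. Its mRNA levels without Dex were 83.2, 99.8 and 85.3 CPM in siNS, 22.1, 22.7 and 25.5 CPM in siHP1γ, and 69.1, 76.3 and 70.8 CPM in siPRMT5 cells. With Dex they were 91.5, 88.0 and 96.1 CPM in siNS, 18, 21.9 and 21.8 CPM in siHP1γ, and 53.3, 54.8 and 61.8 CPM in siPRMT5 cells. The siHP1γ libraries were low in both treatments, the siPRMT5 libraries lay between them and siNS, and none of these groups overlapped. The distance of siHP1γ from siNS with Dex is part of the choice. In Eth, HP1γ depletion changed GIT1 by a log2 fold change of -1.93 ± 0.0947 (SE, edgeR adjusted p = 1.26e-13), to 26.2% of siNS, and PRMT5 depletion by -0.31 ± 0.0865 (0.00484), to 80.5%. The depletions differed by -1.62 ± 0.0955 (edgeR adjusted p = 5.39e-13). Dex in siPRMT5 cells gave -0.35 ± 0.0884 (edgeR adjusted p = 0.00595), below the 1.5-fold change that the Dex threshold asks for. As a description, GIT1 moved by 0.04 ± 0.0850 with Dex in siNS and by -0.19 ± 0.104 in siHP1γ cells, and siHP1γ differed from siNS with Dex by -2.16 ± 0.0952 and siPRMT5 by -0.70 ± 0.0870.

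Of 16 other tested genes of GIT, PIX and PAK adhesion signalling, 6 rose and 4 fell in siHP1γ Eth (62.5%, beside 31.8% of all genes), with a median of 0.14. LIMK1, a kinase that acts on cofilin, rose by 0.72 (edgeR adjusted p = 3.27e-07), PAK1 rose by 0.53 (1.91e-07), PAK4 rose by 0.45 (0.000476), and the adaptor NCK1 fell by 0.59 (1.28e-05). GIT2, the paralog of GIT1, rose by 0.22 ± 0.0675 (edgeR adjusted p = 0.0158), against the direction of GIT1. In siPRMT5 Eth, 3 of the list rose and 3 fell (37.5%, beside 42.1% of all genes), and GIT2 lay at 0.09 ± 0.0678 (edgeR adjusted p = 0.286). With Dex, 7 passed in siHP1γ against siNS (43.8%, beside 24.0%), with LIMK1, PAK1, PAK4 and NCK1 among them and GIT2 not.

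SCML1 belongs to the SCM family of Polycomb group genes. SCML1 mRNA without Dex was at 98.7, 82.8 and 80.5 CPM in siNS, 17.1, 20.5 and 20.5 CPM in siHP1γ, and 113, 119 and 116 CPM in siPRMT5 cells. With Dex it was at 67.0, 68.0 and 74.9 CPM in siNS, 23.5, 16.3 and 15.7 CPM in siHP1γ, and 111, 133 and 106 CPM in siPRMT5 cells. The siHP1γ libraries were the lowest and the siPRMT5 libraries the highest of the 18. The siRNAs thus moved SCML1 in opposite directions from siNS in Eth, without overlap. With Dex the libraries did not overlap either, but the siHP1γ difference there is part of the choice. In Eth the log2 fold change was -2.17 ± 0.123 after HP1γ depletion (SE, edgeR adjusted p = 1.94e-12) and 0.41 ± 0.108 after PRMT5 depletion (0.00325), and the depletions differed by -2.58 ± 0.122 (edgeR adjusted p = 7.95e-15). Dex in siPRMT5 cells gave 0.01 ± 0.106 (edgeR adjusted p = 0.952), a value whose sign turned with the scaling. As a description, the Dex response was -0.32 ± 0.109 in siNS and -0.06 ± 0.136 in siHP1γ cells, and with Dex siHP1γ and siPRMT5 lay at -1.90 ± 0.123 and 0.74 ± 0.108 from siNS.

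SCML2, a close paralog that starts 617.2 kb from SCML1 on the X chromosome, had 31.9, 27.6 and 24.2 CPM in siNS Eth, 10.4, 9.73 and 9.73 CPM in siHP1γ Eth, and 36.5, 33.1 and 40.1 CPM in siPRMT5 Eth. SCML2 was low and high in the same conditions as SCML1, with log2 fold changes of -1.49 ± 0.152 in siHP1γ Eth (edgeR adjusted p = 4.64e-08) and 0.39 ± 0.132 in siPRMT5 Eth (0.0182). The more distant SCMH1 went the other way in both, at 0.27 (edgeR adjusted p = 0.0315) and -0.64 (1.27e-05). The Polycomb and MBT list has 24 tested genes besides SCML1, with SCML2 and SCMH1 among them. In siHP1γ Eth, 7 of the 24 rose and 7 fell (58.3%, beside 31.8% of all genes), with a median of 0.05. This count of 14 fell to as few as 8 with 1 library left out. After SCML2 the largest changes were those of PCGF6, which fell by 1.1 (edgeR adjusted p = 8.87e-08), and of CBX8 and CBX2, which both rose by 0.50 (0.02 and 0.000379). In siPRMT5 Eth, 10 of the list rose and 3 fell (54.2%, beside 42.1%). In siHP1γ against siNS with Dex, 1 of the 24 rose and 4 fell (20.8%, beside 24.0% of all genes). SCML2, PCGF6 and CBX2 were among them, while CBX8 and SCMH1 did not pass. The shares in Eth and with Dex were not tested against each other. SCML4 was not tested.

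LINC00460 is a long noncoding RNA that has been studied in several carcinomas. LINC00460 without Dex was at 4.53, 4.69 and 5.80 CPM in siNS, 17.7, 16.2 and 16.1 CPM in siHP1γ, and 6.98, 7.75 and 5.50 CPM in siPRMT5 cells. With Dex it was at 5.39, 7.74 and 6.53 CPM in siNS, 23.9, 22.0 and 23.5 CPM in siHP1γ, and 8.11, 9.13 and 9.17 CPM in siPRMT5 cells. The siHP1γ libraries stood above all others, which with Dex is part of the choice, and siPRMT5 Eth overlapped siNS Eth. In Eth, LINC00460 rose after HP1γ depletion by a log2 fold change of 1.73 ± 0.144 (SE, edgeR adjusted p = 1.48e-09), or 3.32-fold. After PRMT5 depletion it was 0.42 ± 0.167 with an edgeR adjusted p of 0.0467, and this call was lost without any one of 14 of the 18 libraries, with adjusted p from 0.0520 to 0.204. Those libraries were siNS Eth 1 and 2, siNS Dex 3, siPRMT5 Eth 1 and 2 and every siHP1γ and siPRMT5 Dex library. The depletions differed by 1.31 ± 0.137 (edgeR adjusted p = 1.74e-08). Dex in siPRMT5 cells gave 0.39 ± 0.150 (edgeR adjusted p = 0.0779). As a description, the Dex response was 0.37 ± 0.165 in siNS and 0.47 ± 0.113 in siHP1γ cells, and siHP1γ differed from siNS with Dex by 1.83 ± 0.130. Of 8 other tested long noncoding RNAs linked to cancer, 2 rose and 3 fell in siHP1γ Eth (62.5%, beside 31.8% of all genes), with a median of -0.11, and the count of 5 fell to 3 without any one of 4 libraries. UCA1 fell by 1.41 (edgeR adjusted p = 4.28e-07), GAS5 fell by 0.64 (1.55e-06), LUCAT1 rose by 0.52 (7.83e-06) and LINC00511 rose by 0.49 (0.0312). In siPRMT5 Eth, 0 of the list rose and 4 fell (50%, beside 42.1% of all genes), among them UCA1, which fell by 1.67 (edgeR adjusted p = 2.37e-08). With Dex, 3 of the 8 passed in siHP1γ against siNS (37.5%, beside 24.0%), UCA1, GAS5 and LUCAT1.

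**Figure D1:**
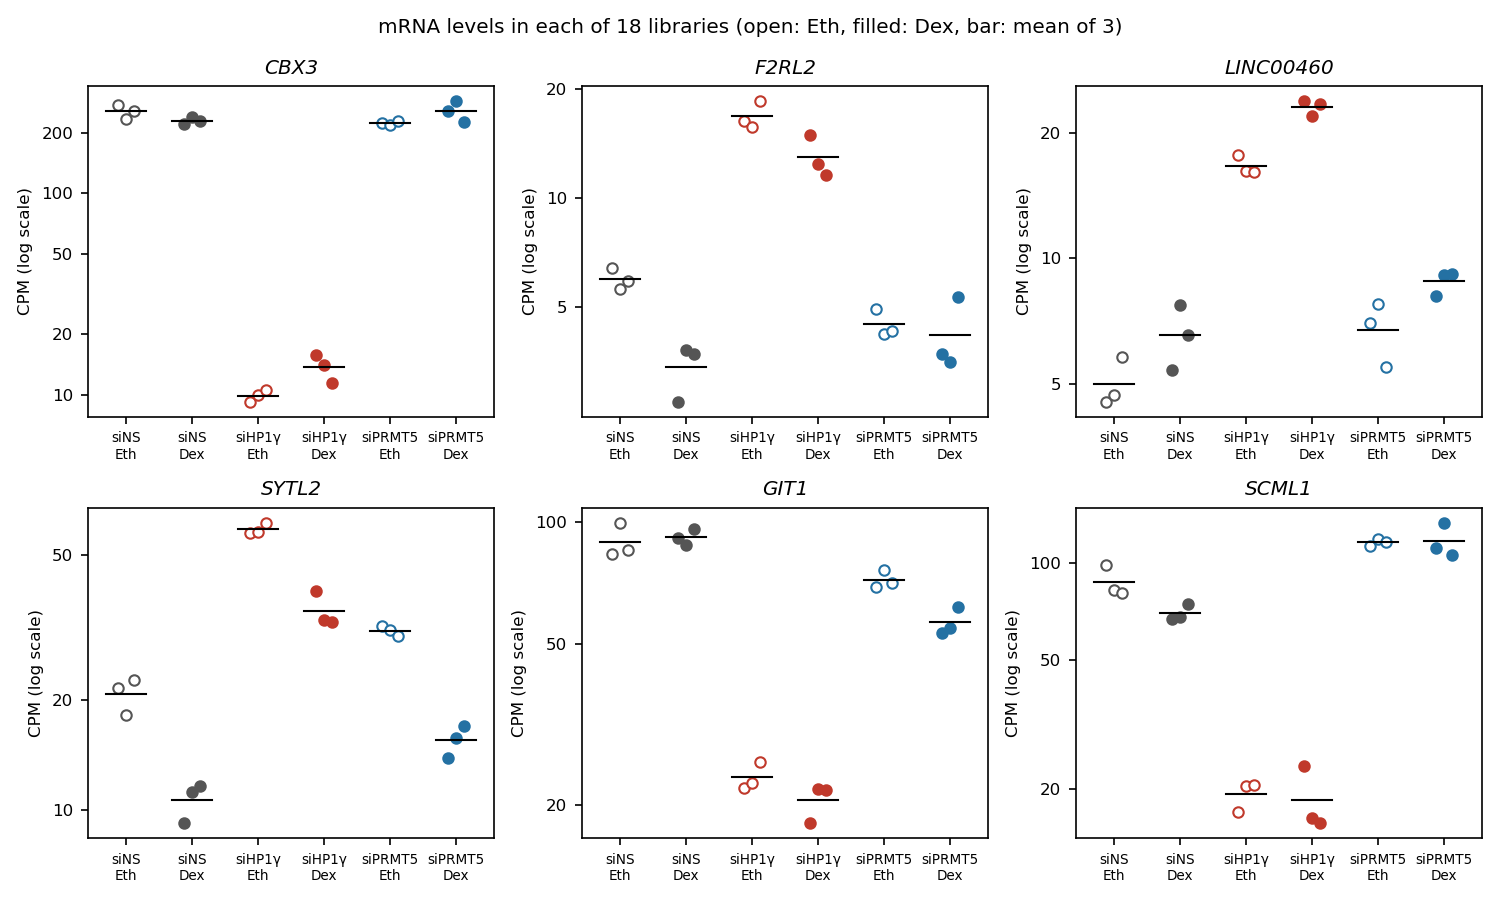
CPM of CBX3, the siRNA target, and of the 5 genes in each library (log scale) by siRNA and treatment, with open points for Eth, filled points for Dex and a bar at the mean of 3 replicates. F2RL2, LINC00460 and SYTL2 are highest, and GIT1 and SCML1 lowest, in siHP1γ cells with and without Dex. The difference between siHP1γ and siNS with Dex chose the genes.

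The change of these genes was thus present without Dex, in libraries whose values did not enter the difference that chose them. A floor on the mean level over all libraries, as in the ranking below, is met by F2RL2 only through its siHP1γ libraries. The Eth value of F2RL2 may thus not be independent of the choice. In siHP1γ Eth against siNS Eth, 5 of 5 genes passed the test, beside 31.8% of all 15298 genes, of which 3 were higher (16.5% of all genes) and 2 lower (15.2%). The split of all genes hung on the scaling, with 2531 higher and 2329 lower by TMM and 3198 and 1814 with library size alone. All 5 also passed with a change of at least 2-fold, as did 3.07% of all genes. Among all 15298 genes, SCML1 ranked 24 by the size of its change, GIT1 43, LINC00460 73, F2RL2 139 and SYTL2 140. The sizes ran from 1.5 to 2.17 on the log2 scale, while the median over all genes was 0.23. In Dex, the comparison by which they were selected, 24.0% of all genes passed, and the log2 fold changes of the 5 genes ran from 1.73 to 2.16 in size. Whether the effect of HP1γ depletion differed between Eth and Dex was not tested, since the Dex values chose the genes.

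In siPRMT5 Eth against siNS Eth, 4 of 5 genes passed, beside 42.1% of all genes, and 3 of 5 when the unstable call of LINC00460 is set aside. None of SYTL2, SCML1, GIT1, LINC00460 or F2RL2 changed by at least 2-fold, while 7.27% of all genes passed with such a change. SYTL2, GIT1, SCML1 and F2RL2, 4 of 5, had libraries that did not overlap between siPRMT5 Eth and siNS Eth, as did 49.1% of all genes. Among the 15298 genes, SYTL2 ranked 3419 by size and the other members from 5207 (LINC00460) to 7013 (GIT1). The direction was that of HP1γ depletion for SYTL2 and GIT1 and the opposite for SCML1. LINC00460 lay on the side of HP1γ depletion, but its unstable call does not establish a direction. For F2RL2 no direction was established, since its change in Eth did not pass. Compared directly, siHP1γ Eth differed from siPRMT5 Eth in 5 of 5 genes (48.4% of all genes). The difference passed and was at least 2-fold in 4 of 5 (9.06% of all genes), with SYTL2 at 1.90-fold.

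**Figure D2:**
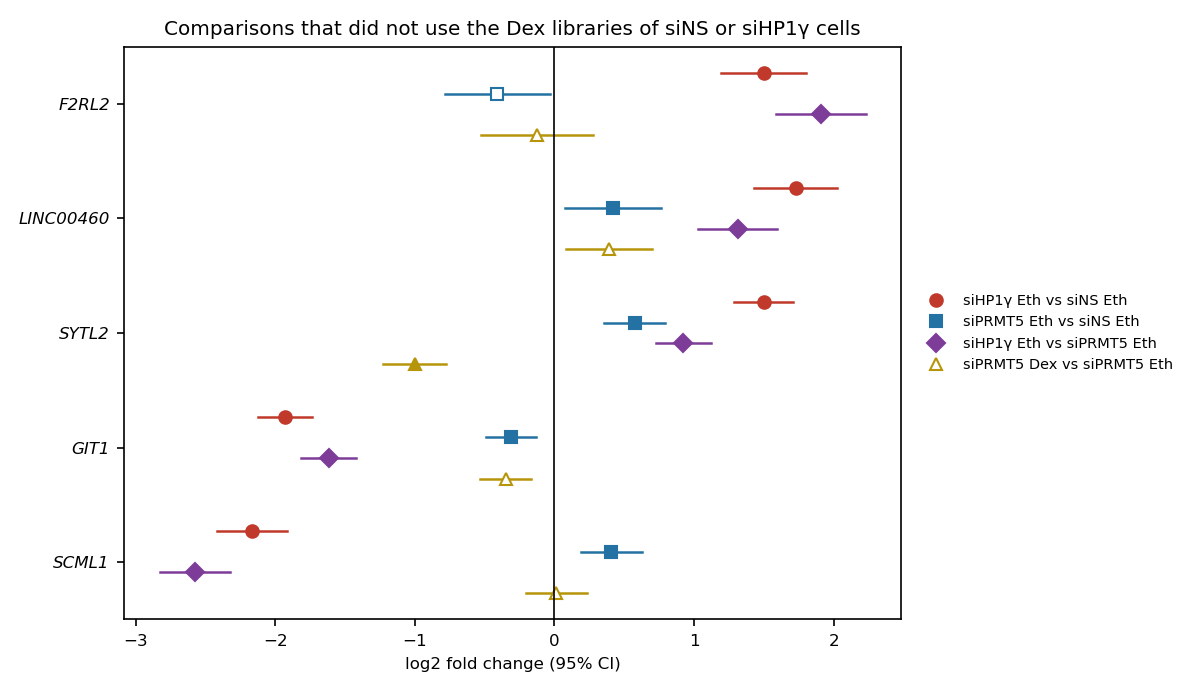
Log2 fold change and 95% confidence interval of each gene in the 4 tested comparisons, with filled symbols where the gene was called. Without Dex, the changes after HP1γ depletion run from 1.5 (SYTL2) to 2.17 (SCML1) in size, and those after PRMT5 depletion from 0.31 (GIT1) to 0.57 (SYTL2).

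**Figure D3:**
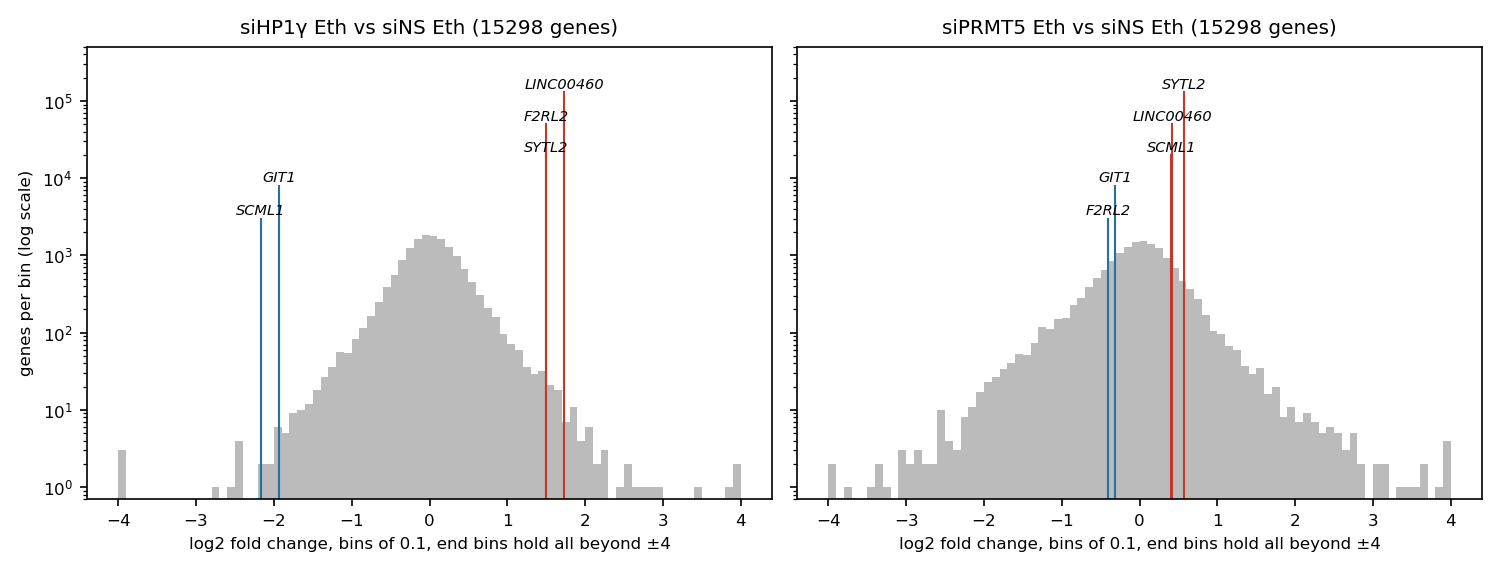
Number of the 15298 tested genes by log2 fold change (bins of 0.1, log scale, end bins hold all beyond 4) after HP1γ (left) and PRMT5 depletion (right) in Eth, with lines at the 5 genes. The genes lie in the tails on the left and in the body of the distribution on the right.

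Of the 5 genes, 1 responded to Dex in siPRMT5 cells at the threshold used (adjusted p under 0.01 and at least 1.5-fold), beside 5.44% of all genes, and this was SYTL2. As a description, SYTL2 was also the gene whose levels with Dex were lower than with Eth under every siRNA, without overlap. The Dex libraries of siNS and siHP1γ cells took part in the choice, here and in the values that follow. LINC00460 had a positive log2 fold change with Dex under each siRNA, 0.37 in siNS, 0.47 in siHP1γ and 0.39 in siPRMT5 cells, and its libraries overlapped between Dex and Eth in siNS. With Dex, siPRMT5 differed from siNS by 0.28 ± 0.200 for F2RL2, 0.44 ± 0.147 for LINC00460 and 0.54 ± 0.123 for SYTL2, again as a description.

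Per kilobase of annotated exon, the order of the genes changed with the siRNA. In siNS Eth, SCML1 and GIT1 stood at 15.9 ± 1.81 and 15.8 ± 1.59 CPM per kb (SD, n = 3), and SYTL2, F2RL2 and LINC00460 at 1.85 ± 0.205, 1.75 ± 0.118 and 1.18 ± 0.164. SCML1 and GIT1 did not differ beyond the spread between libraries, nor did SYTL2 and F2RL2, while both pairs lay clearly apart. In siHP1γ Eth the order was SYTL2 at 5.22 ± 0.196, F2RL2 at 4.95 ± 0.439, GIT1 at 4.15 ± 0.322, LINC00460 at 3.94 ± 0.213 and SCML1 at 3.52 ± 0.361 CPM per kb. The 5 genes thus lay close together there, with SYTL2 and F2RL2, and GIT1 and LINC00460, within their spread. In siPRMT5 Eth the wide gap was kept, with SCML1 at 21.1 ± 0.578, GIT1 at 12.8 ± 0.666, SYTL2 at 2.75 ± 0.0930, LINC00460 at 1.59 ± 0.27 and F2RL2 at 1.32 ± 0.115 CPM per kb. The length used is that of all annotated exons merged, not that of the transcripts these cells make. The SD does not cover the error of this length, nor reads over introns, which the aligner does not split. The order of genes that lie close may thus depend on the length used.

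The nearest tested genes on the chromosome were read beside all genes, with no test of the difference. Of 30 such neighbours, 3 on each side of each gene, 6 passed in siHP1γ Eth against siNS Eth (20%, beside 31.8% of all genes), and 2 of them changed by at least 2-fold. These were SCML2 and PDCD5P2, a pseudogene whose start lies at -342.5 kb from that of F2RL2 (towards lower coordinates), with a log2 fold change of -1.33 ± 0.223 (edgeR adjusted p = 5.31e-05). Whether reads counted for PDCD5P2 stem from its parent gene elsewhere was not tested. For LINC00460, 0 of 6 neighbours passed in edgeR. EFNB2, at 161.2 kb the nearest, lay at 0.09 ± 0.0808, while ERCC5, BIVM and POGLUT2 on the other side are far off, at -3528.6 to -3575.4 kb. Near GIT1, TP53I13 rose by 0.50 (edgeR adjusted p = 0.0187), while ANKRD13B, whose start lies at -4.3 kb from that of GIT1, lay at -0.09 ± 0.145 (0.689). In siPRMT5 Eth, ANKRD13B fell by 0.67 (edgeR adjusted p = 0.00111), and with Dex it was at -0.88 from siNS, the direction of GIT1 in both. Whether mixed reads of these overlapping genes took part in the GIT1 values was not tested. Near SYTL2, TMEM126A and EED lay at -0.29 and -0.24 (edgeR adjusted p = 0.0116 and 0.0144), and EED did not pass with library size alone (0.0694). NHS, at -362.2 kb from SCML1, rose by 0.51 (edgeR adjusted p = 0.0262). IQGAP2, which contains F2RL2, lay at -0.19 ± 0.403 (edgeR adjusted p = 0.765).

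Beyond the neighbours, the genes with the most similar pattern over all 18 libraries are given for F2RL2, SYTL2, GIT1 and SCML1, from among 14408 genes that averaged 1 CPM or more, by the root mean square difference of log2 CPM after centring each gene on its own mean. For F2RL2 these were AP000569.1 (0.336), BEST3 (0.360) and CXCL8 (0.387), where F2RL2 itself varied by 0.856 about its mean. SYTL2, which varied by 0.810, was followed by MYH15 (0.232), AC021218.1 (0.233) and CXCL8 (0.284). CXCL8, which encodes a neutrophil chemokine, was listed for both F2RL2 and SYTL2. In siHP1γ Eth against siNS Eth it rose by 0.84, less than the 1.5 of F2RL2 and of SYTL2. The genes nearest to GIT1, which varied by 0.879, were POLE3 (0.256), ERO1A (0.305) and PRR11 (0.309). SCML1 varied by 1.14, and BTG3 (0.247), SCML2 (0.367) and ADSL (0.393) were nearest to it. The 18 libraries include the Dex libraries of siNS and siHP1γ cells that chose the genes, which favours genes with large changes there. The likeness is thus a description and was not tested.

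Genes were also ranked by the difference that chose the members (siHP1γ Dex against siNS Dex). Ranked genes averaged 5 CPM or more, a level F2RL2 meets only through its siHP1γ libraries. They also had an edgeR adjusted p under 0.05 and moved the same way in every same-numbered pair of replicates. CBX3 and PRMT5 were left aside. On the rising side, SYTL2 at 1.73 was followed by CXCL1 at 1.67 and CXCL8 at 1.57. On the falling side, CBX3P9 stood before GIT1 at -4.84, and SCML1 at -1.90 was followed by BTG3 at -1.90 and PLAT at -1.84. The last gene inside and the first outside thus lay close together in both directions.

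HP1γ has the paralogs HP1β (CBX1) and HP1α (CBX5). CBX1 lay at -0.20 ± 0.0666 in siHP1γ Eth (edgeR adjusted p = 0.0231), but at -0.14 (0.109) with library size alone, and CBX5 at -0.01 ± 0.0775 (0.933), or 0.05 with library size alone. In siPRMT5 Eth, CBX1 fell by 0.95 (edgeR adjusted p = 3.3e-11) and CBX5 by 0.22 (0.0243). The list of HP1 and its partners in histone methylation has 10 tested genes besides CBX3, with CBX1 and CBX5 among them. In siHP1γ Eth, 3 of the 10 rose and 2 fell (50%, beside 31.8% of all genes), with a median of 0.07. POGZ rose by 0.55 (edgeR adjusted p = 6.5e-06), SETDB1 rose by 0.44 (0.00032) and EHMT1 rose by 0.31 (0.00599), while TRIM28 lay at -0.23 (0.0161) and at -0.17 (0.0694) with library size alone. In siPRMT5 Eth, 2 of the list rose and 3 fell (50%, beside 42.1%), and this count of 5 fell to 3 without either of 2 libraries. In siHP1γ against siNS with Dex, 1 of the 10 rose and 2 fell (30.0%, beside 24.0%), with POGZ and TRIM28 among them. SETDB1 lay at 0.02 (edgeR adjusted p = 0.87), EHMT1 at -0.08 (0.544) and CBX1 at -0.02 (0.844).

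**Figure D4:**
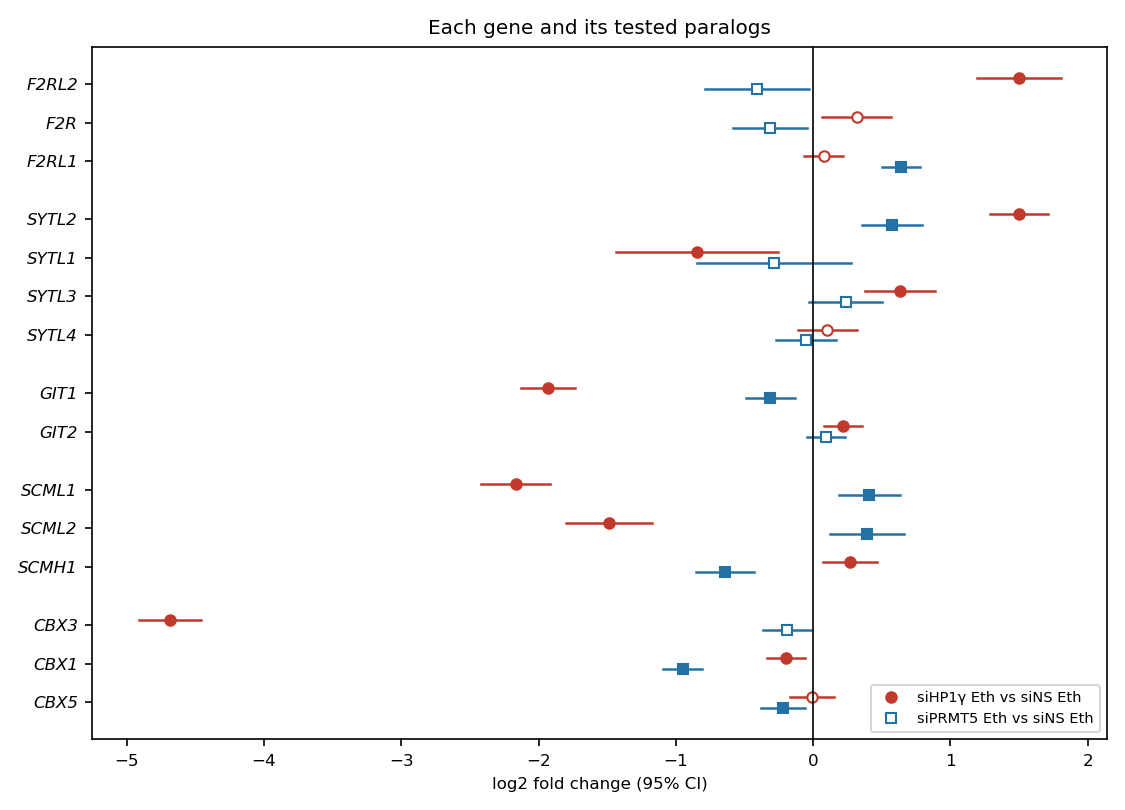
Log2 fold change and 95% confidence interval of each gene and its tested paralogs after HP1γ and PRMT5 depletion in Eth, with filled symbols where called. Only SCML2 among the paralogs shown moves with its member by over 1 on the log2 scale, at -1.49.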

How the data were processed

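The raw counts per gene symbol that the authors deposited for each of 18 libraries came from HTSeq 0.9.1, after alignment to hg38 by Bowtie2 2.4.2 (submitters' processing notes). Strand setting, read length and annotation are not given in the sources used here. Bowtie2 does not split reads over introns. The authors' table of their own DESeq2 comparisons (log2 fold changes and p-values) was not used.

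The filter of edgeR 4.0.16 (R 4.3.3; filterByExpr) kept 15298 of 60642 symbols. TMM scaling and 1 quasi-likelihood fit of all 18 libraries with a mean per condition (12 residual degrees of freedom) followed, with Benjamini-Hochberg adjustment over all genes tested. Depletions were called at an adjusted p under 0.05 and Dex responses at 0.01 with at least 1.5-fold. The SE is the log2 fold change over the square root of F. Alternatives were DESeq2 1.42.0, its size factors, library size alone, other filters, a block for replicate numbers, a fit on the 6 libraries compared, and each library left out. The code was tested on simulated counts.

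The 5 genes and the gene lists were chosen with earlier results of these data known. Comparisons that share the Dex libraries of siNS or siHP1γ cells carry no test for the 5 genes. Other named genes are the siRNA targets, the 3 most similar patterns for 4 of the 5 genes, the 3 tested neighbours on each side, overlapping genes, the next 2 genes in each direction of the ranking, paralogs, and up to 4 called genes of each list by size of change. Markers are named as a check of the cell line. Positions are from GENCODE 44, in which 88.2% of tested genes were found once.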

Additional observations from a re-analysis of the deposited data

Results flagged for a closer look

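SCML1 responded to the depletions in opposite directions in Eth. It lay below siNS Eth in every siHP1γ Eth library and above it in every siPRMT5 Eth library, each change passed its own test, and siHP1γ Eth differed from siPRMT5 Eth by a log2 fold change of -2.58 (edgeR adjusted p = 7.95e-15). For F2RL2 the depletions differed by 1.91 in Eth (edgeR adjusted p = 2.17e-10), which does not bear on the direction after PRMT5 depletion. Its siPRMT5 value was -0.41 in Eth (edgeR adjusted p = 0.077), which was not called, so that direction was not established. Single libraries in these groups of 3 were not tested for lying apart. By description, siHP1γ Dex replicate 1 differed from replicates 2 and 3 by a chi-square per degree of freedom of 6.80 and 11.3, and those from each other by 3.03. Leaving it out kept the calls of all 5 genes in siHP1γ Eth. It enters that comparison only through the shared fit, so this does not bear on the Dex values.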

How the results depend on the processing

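All 5 genes kept direction and call in siHP1γ Eth against siNS Eth and against siPRMT5 Eth under all 7 other settings and with each of 18 libraries left out. In siPRMT5 Eth against siNS Eth, LINC00460 (0.42) no longer passed with DESeq2 (0.43), without a filter (0.42), with the replicate block (0.42) or with the 6 libraries alone (0.41), and ranged from 0.31 to 0.55 with 1 library left out. SYTL2, GIT1, SCML1 and F2RL2 kept their side of the threshold there. GIT1 came near it, with an edgeR adjusted p of up to 0.0495 and values from -0.37 to -0.23 with 1 library left out. In siPRMT5 Dex against siPRMT5 Eth, values near 0 changed sign without a call: SCML1 with library size alone (-0.00042) and without siPRMT5 Eth replicate 1 or siPRMT5 Dex replicate 2 (range -0.086 to 0.089), and F2RL2 without siPRMT5 Dex replicate 2 (range -0.30 to 0.00054). The cause was not tested. Counts of all genes called stayed within 1.5 times of the main value, and 290 of 300 counts for the lists did so, the exceptions being named with the lists. Same-numbered libraries did not pair (correlations of deviations from -0.0947 to 0.233). Over the 7 settings, this block among them, 4462 to 5436 genes were called in siHP1γ Eth and 5975 to 6499 in siPRMT5 Eth, against 4860 and 6446. F2RL2 rests on 31 to 58 reads per siNS library, which limits its precision.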
